A study of Mus musculus with 6 samples.

Results

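The genes described here are 10 components of Wnt signalling: the ligands Wnt2, Wnt5a and Wnt9b, the Frizzled receptors Fzd1, Fzd2 and Fzd7, the co-receptor Ror2, the feedback gene Axin2, and the secreted regulators Rspo3 and Sfrp1. They were picked by gene symbol from a count table of 22966 mouse genes, and all 10 symbols were found. The table holds 6 RNA-seq libraries of hepatic stellate cells, the vitamin A-storing pericytes of the liver that turn into matrix-producing myofibroblasts after injury. The cells were isolated from mice given carbon tetrachloride (CCl4), a liver toxin, in a study of mice lacking butyrylcholinesterase (the gene Bche, written Buche in the labels) in hepatocytes. The libraries are 3 titled flox and 3 titled Cre, all of which carry the same genotype entry, BucheHep, and the same treatment entry, so only the titles set the groups apart. The sources used here do not give the promoter driving Cre, the age of the animals, the meaning of the prefix S2W in the titles, or whether a library came from 1 mouse or a pool. The labels name no separate mice or cultures behind the replicates, and the p-values therefore measure the spread between these libraries, which may be technical.

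Wnt proteins are secreted lipid-modified ligands that bind Frizzled receptors. With an Lrp5 or Lrp6 co-receptor they stop the breakdown of β-catenin, which then acts with Tcf/Lef factors on target genes, among them Axin2. With Ror2 or Ryk they act through routes that do not need β-catenin, and Wnt5a is the textbook ligand of Ror2. R-spondins such as Rspo3 raise the amount of Frizzled at the cell surface through Lgr receptors and the ubiquitin ligases Znrf3 and Rnf43, whereas Sfrp1 is a secreted Frizzled-like decoy. In the liver, Wnt2, Wnt9b and Rspo3 made by cells of the central vein and the sinusoids are known for maintaining the pericentral program of hepatocytes.

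The libraries held 37273142 to 41006722 counts, a ratio of at most 1.10 between the deepest and the shallowest. Bche had 6 to 21 counts in the flox libraries and 2 to 15 in the Cre libraries, which does not check a deletion made in hepatocytes. The labelled cell type was checked against 15 stellate cell markers, all present, whose summed level was 1178 to 3000 CPM (counts scaled to library size) in flox and 2231 to 3489 CPM in Cre. Markers of other liver cells were present too and differed between libraries. The 14 macrophage markers summed to 7854 to 22111 CPM in flox and 2402 to 2830 CPM in Cre. By edgeR's quasi-likelihood test 13 of them fell in the Cre libraries, as did 8.94% of all genes tested. The 16 endothelial markers summed to 2668 to 7658 CPM in flox and 3812 to 6755 CPM in Cre. Flox 3 stood apart from flox 1 and flox 2 with the highest endothelial sum. The endothelial sum was above the stellate sum in every library, and in every flox library the macrophage sum was above both. Such sums depend on the genes listed and do not give the share of cells of a type. In RNA of a whole cell preparation, fewer cells of a type and less RNA per cell cannot be told apart, and the part of this cell makeup in the results on the Wnt genes was not tested.

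Wnt5a, Fzd1 and Axin2 rose in the Cre libraries, and none of the other members passed the test. These 3 were called among 9 tested members at an adjusted p below 0.05 (edgeR, Benjamini-Hochberg adjustment over 14795 genes). Over all genes tested, 6.35% were called higher and 8.94% lower in Cre. None of the 9 was called lower, and 0 members had a negative change at an unadjusted p below 0.05; DESeq2 and limma-voom called 0 lower as well, against 15.9% and 5.58% of all genes. The log2 fold change was positive for 8 of the 9 and negative for Fzd7. Its median over the 9 was 1.33, against 0.01 over all genes tested. All 3 Cre libraries lay above all 3 flox libraries for 6 members (Wnt5a, Fzd1, Fzd2, Ror2, Axin2 and Rspo3), and the reverse held for 0 members. Over all genes tested, 19.6% had every Cre library above every flox library and 20.0% had every one below. The members and gene lists were chosen with earlier results of these data known, so comparisons with all genes are descriptions only. DESeq2 called 6 of the 9 higher, adding Fzd2, Ror2 and Rspo3, where it called 13.4% of all genes higher. Limma-voom called Fzd1 alone among the 9, where it called 3.91% of all genes higher, and lost Wnt5a and Axin2 (limma-voom adjusted p = 0.0727 and 0.0656). Wnt9b was not tested, since it had 0 counts in every library.

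**Figure D1:**
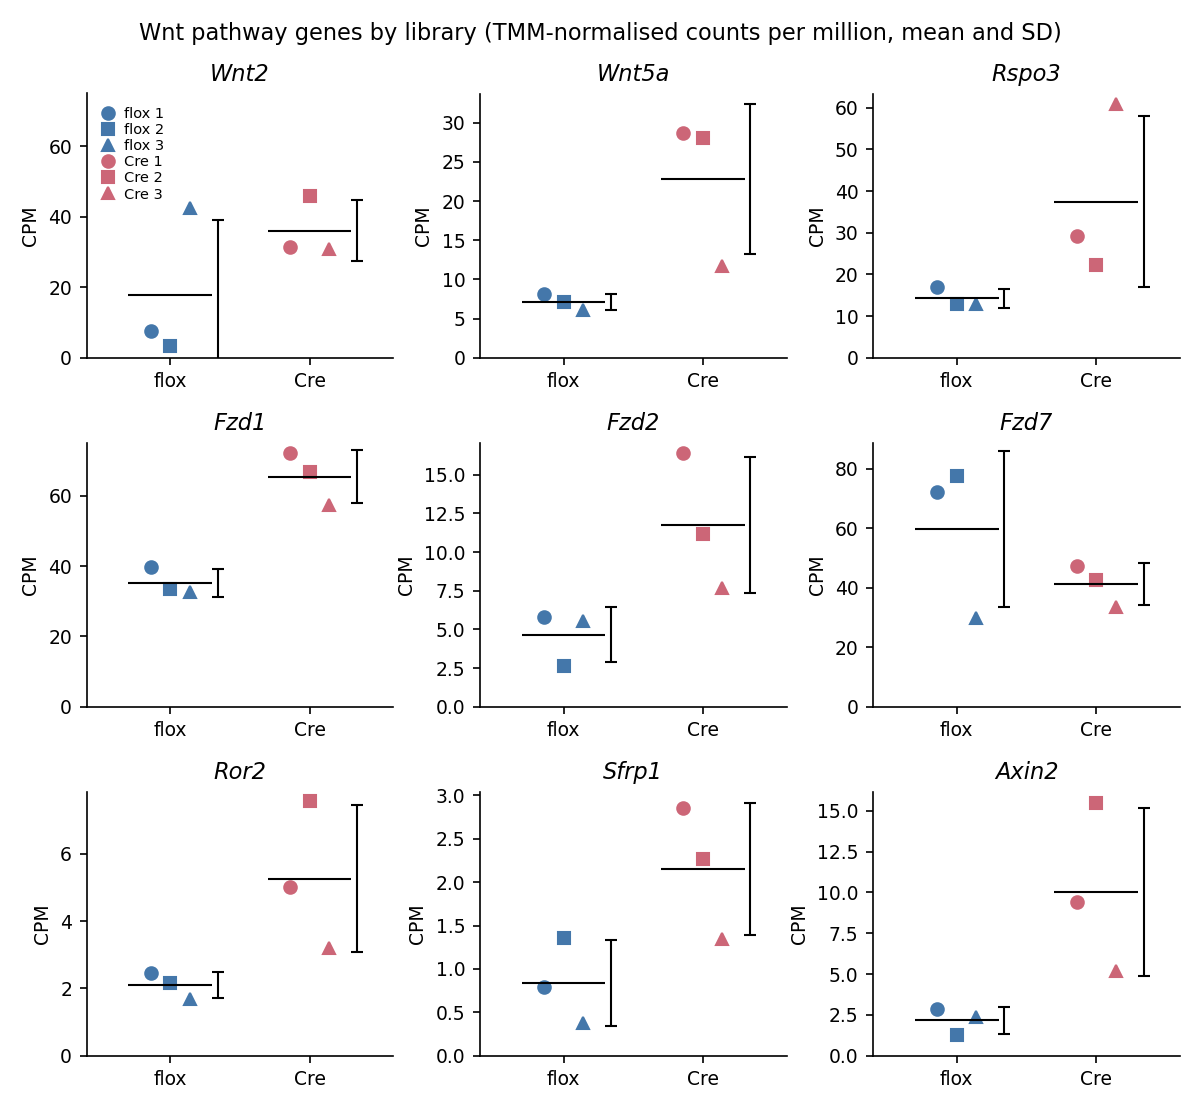
Level of the 9 members with counts (y axis, TMM-normalised CPM on a linear scale) in each flox library (blue) and Cre library (red), with the group mean as a horizontal line and a bar of 1 SD beside it. The groups do not overlap for Wnt5a, Rspo3, Fzd1, Fzd2, Ror2 and Axin2, while flox 3 is the highest flox library for Wnt2 and the lowest library for Fzd7; the flox bar of Wnt2 reaches below 0 and is drawn from 0.

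Among the ligands, Wnt2 (chromosome 6, 17988940 to 18030585, minus strand; all gene positions are GENCODE M21 on GRCm38) was the member with the most uneven flox group. Its level was 7.51, 3.42 and 42.4 CPM in flox 1 to 3 and 31.5, 46.0 and 30.8 CPM in Cre 1 to 3, after scaling by trimmed means of M values (TMM). Flox 3 lay within the Cre range, and flox 1 and flox 2 lay below every Cre library. The flox mean was 17.8 ± 21.4 CPM and the Cre mean 36.1 ± 8.56 CPM (SD, n = 3 each). With a log2 fold change of 1.02 ± 0.84 (SE), Wnt2 was not called (edgeR adjusted p = 0.423). Without flox 3 it was 2.72 with an edgeR adjusted p of 0.00471, the only one of 16 alternatives in which Wnt2 was called, and it was 0.65 without flox 1 and 0.53 without flox 2 (edgeR adjusted p = 0.703 and 0.679). It was higher in fits on log values, at 1.72 with limma-voom and 1.90 with log2(FPKM + 0.1), also without a call (limma adjusted p = 0.157 and 0.238).

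Cdh5, the vascular cadherin and one of the endothelial markers, was at 622, 491 and 2011 CPM in flox and at 1045, 1619 and 1256 CPM in Cre. Flox 3, the flox library with the highest Wnt2, was thus also the library with the highest Cdh5. Per kilobase, Wnt2 made 2.15%, 1.24% and 3.75% of the Cdh5 level in flox and 5.37%, 5.06% and 4.37% in Cre. On this within-library ratio of FPKM values (fragments scaled to gene length and library size) the groups did not overlap. The ratio to Pecam1, another endothelial marker, did not overlap either, but flox 3 at 6.88% and Cre 3 at 7.09% were close. The ratio to Kit overlapped. These 3 pairings, like the other within-library ratios below, were chosen after the values had been seen and were not tested.

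Wnt5a (chromosome 14, 28504750 to 28527448, plus strand), a ligand that acts mostly without β-catenin, was at 8.14, 7.07 and 6.12 CPM in flox and at 28.7, 28.0 and 11.8 CPM in Cre. The flox libraries were close together, and Cre 3 lay nearer to them than Cre 1 and Cre 2 did. The mean rose from 7.11 ± 1.01 to 22.8 ± 9.59 CPM (SD, n = 3), or by 1.68 ± 0.35 on the log2 scale, with an edgeR adjusted p of 0.0309. Limma-voom did not call it (adjusted p = 0.0727). Its exons overlap those of an antisense gene, and the sources used here do not say whether counting used strand, so their reads cannot be told apart; the same holds for Axin2 and Rspo3, and for Tpbg below.

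Wnt9b (chromosome 11, 103727364 to 103749821, minus strand), the second of the central vein ligands, was not detected. A count of 0 allows up to 3 counts, which is 0.0724 to 0.0862 CPM in these libraries. The same libraries held 119 to 1905 counts of Wnt2.

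The ligand genes were also compared as shares of their summed FPKM within each library, over the 14 ligand genes in the table. Wnt2 made 23.3%, 18.6% and 84.8% of the ligand sum in flox and 57.7%, 54.3% and 79.8% in Cre. The largest share in flox 1 and flox 2 belonged to Wnt4, with 62.0% and 58.9%, and Wnt4 made 6.35% to 32.7% in the other 4 libraries. Wnt5a made 2.83% to 8.89% in flox and 7.04% to 12.2% in Cre, ranges that overlap although its level did not. The ligand sum itself was 13.2, 7.34 and 22.2 FPKM in flox and 25.8, 39.5 and 17.7 FPKM in Cre. Among the other ligands tested, Wnt5b, a close relative of Wnt5a, rose from 0.620 ± 0.151 to 2.30 ± 0.960 CPM (SD, n = 3; log2 fold change 1.88 ± 0.48, edgeR adjusted p = 0.0452). In all, 2 of 7 tested ligand genes rose (6.35% of all genes did) and 0 fell (8.94% did). The median log2 fold change of the 7 was 0.56. Another 5 of the 19 ligand genes listed were not analysed here.

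**Figure D2:**
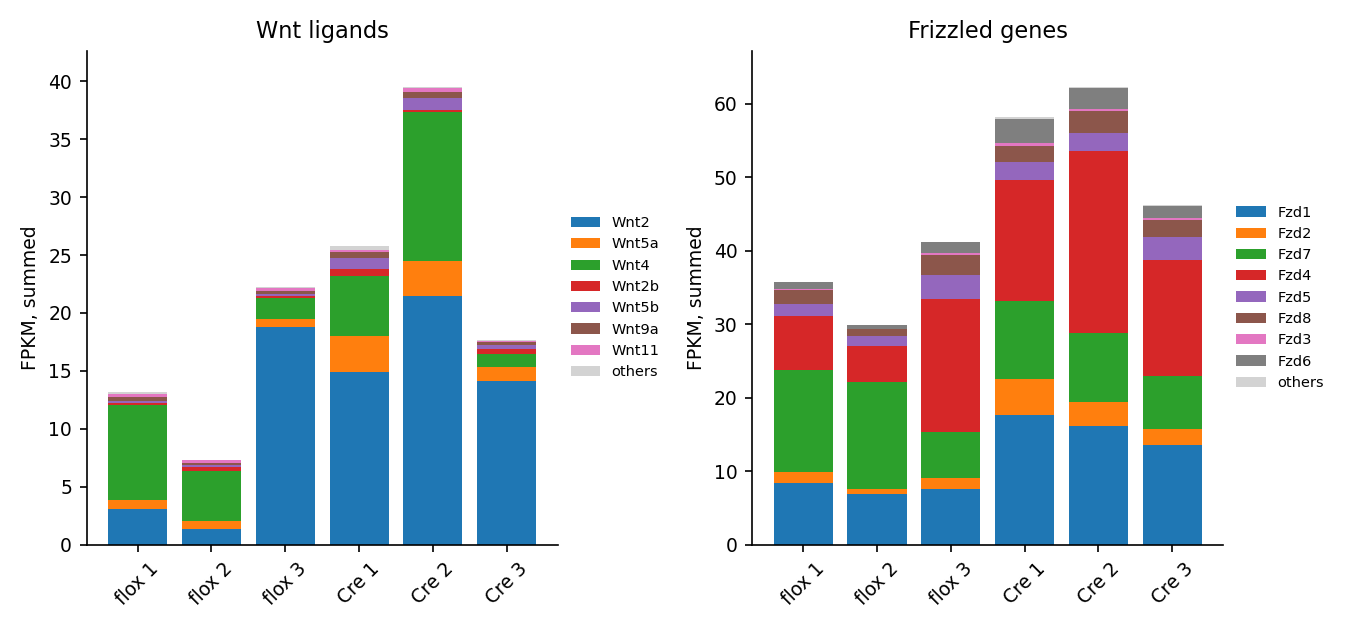
Makeup of the ligand genes (14 genes) and of the Frizzled genes (10 genes) in each library, as stacked FPKM (y axis, linear, from 0), with 1 colour per gene. Wnt2 is the largest part of the ligand sum in flox 3 and in all Cre libraries, and Fzd7 is the largest part of the Frizzled sum in flox 1 and flox 2 at 38.8% and 48.7% but makes 15.03% to 18.15% in the other libraries, where Fzd4 makes 28.3% to 44.2%.

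Rspo3 (chromosome 10, 29452416 to 29535867, minus strand), the secreted amplifier of Wnt signals, was at 16.9, 12.9 and 12.9 CPM in flox and at 29.1, 22.3 and 61.0 CPM in Cre. Every Cre library was above every flox library, and Cre 3, the lowest Cre library for Wnt5a and Axin2, was the highest for Rspo3. The flox mean was 14.3 ± 2.32 CPM and the Cre mean 37.5 ± 20.6 CPM (SD, n = 3). Its log2 fold change of 1.39 ± 0.38 missed the threshold narrowly (edgeR adjusted p = 0.0533), and it was 0.87 without Cre 3 (adjusted p = 0.0547). DESeq2 called it, with an adjusted p of 0.00405.

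Dcn, the matrix proteoglycan decorin and one of the stellate markers, was at 459, 370 and 419 CPM in flox and at 792, 713 and 1412 CPM in Cre. Per kilobase, Rspo3 made 3.24%, 3.06% and 2.71% of the Dcn level in flox and 3.23%, 2.75% and 3.79% in Cre, and these ratios overlapped. Dcn was also 1 of the 2 genes nearest to Rspo3 in profile over the 6 libraries, among 11713 genes. The overlap thus follows from the choice of partner and is no separate result. Dcn itself rose by 1.22 ± 0.28 on the log2 scale (edgeR adjusted p = 0.0351). None of the 6 tested genes of the R-spondin and Lgr list was called in either direction, at a median log2 fold change of 0.56. Lgr5, an R-spondin receptor, had 2, 1 and 4 counts in flox and 21, 43 and 2 in Cre and was too low to test. Without Cre 3 it passed the count filter only through its counts in Cre 1 and Cre 2. It was called higher in that fit, as were 5.04% of all genes, but leaving out its low Cre library makes that call no support for a change.

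The receptor genes did not share a direction. Fzd1 rose, Fzd2 and Ror2 had larger fold changes at lower counts that did not pass, and Fzd7 had a negative fold change. Fzd1 (chromosome 5, 4753839 to 4758035, minus strand) was at 39.9, 33.4 and 32.7 CPM in flox and at 72.4, 66.9 and 57.3 CPM in Cre. It was the member with the tightest groups, at 35.3 ± 3.97 and 65.5 ± 7.63 CPM (SD, n = 3). Fzd1 rose by 0.89 ± 0.14 on the log2 scale (edgeR adjusted p = 0.0237).

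Fzd2 (chromosome 11, 102604396 to 102608058, plus strand), another Frizzled receptor, was at 5.80, 2.64 and 5.55 CPM in flox and at 16.4, 11.2 and 7.66 CPM in Cre. The groups did not overlap, but Cre 3 and flox 1 were close. Fzd2 was not called at 1.33 ± 0.40 on the log2 scale (edgeR adjusted p = 0.0680). DESeq2 called it, with an adjusted p of 0.00971.

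Fzd7 (chromosome 1, 59482424 to 59486955, plus strand) was the most abundant member in flox 1 and flox 2. Its level was 72.0, 77.6 and 29.7 CPM in flox and 47.4, 42.5 and 33.6 CPM in Cre. Flox 3 lay below every Cre library, and the other flox libraries lay above every one. Fzd7 was not called at -0.54 ± 0.35 on the log2 scale (edgeR adjusted p = 0.322). Without flox 3 it was -0.86, with an edgeR adjusted p of 0.00975, whereas it was -0.36 without flox 1 and -0.28 without flox 2 (edgeR adjusted p = 0.616 and 0.685).

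Because they share a library, 2 receptors can be compared by their ratio per kilobase. Fzd1 stood to Fzd7 at 0.609, 0.472 and 1.21 in flox and at 1.68, 1.73 and 1.87 in Cre. This ratio did not overlap between the groups, and flox 3 was again the flox library nearest to Cre. Fzd2 stood to Fzd7 at 0.107, 0.0451 and 0.248 in flox and at 0.459, 0.348 and 0.302 in Cre, which did not overlap either. As shares of the 10 Frizzled genes, Fzd1 made 18.3% to 23.6% of the summed FPKM in flox and 25.9% to 30.4% in Cre. Fzd4, the Frizzled with the highest mean FPKM in Cre, made 20.3%, 16.4% and 44.2% in flox and 28.3%, 39.9% and 33.96% in Cre. Its share was the largest of the family in flox 3, Cre 2 and Cre 3. Fzd4 was not called, at 0.78 ± 0.45 on the log2 scale (edgeR adjusted p = 0.258).

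Ror2 (chromosome 13, 53109312 to 53286124, minus strand), the receptor tyrosine kinase that binds Wnt5a, was at 2.44, 2.16 and 1.69 CPM in flox and at 5.01, 7.55 and 3.20 CPM in Cre. All Cre libraries were above all flox libraries. Ror2 just missed the threshold at 1.32 ± 0.38 on the log2 scale (edgeR adjusted p = 0.0590), and without Cre 3 it passed at 1.60 (adjusted p = 0.0426). No other fit with a library left out called Ror2, and without Cre 2 it was at 0.998 (edgeR adjusted p = 0.163). Its relative Ror1 had a log2 fold change of 1.07 ± 0.54 (adjusted p = 0.207), and the ratio of Ror2 to Ror1 overlapped between the groups.

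The median log2 fold change of the 14 receptor and co-receptor genes tested was 0.87. Of them, 3 rose (6.35% of all genes did) and 0 fell (8.94% did). Beside Fzd1 these were Ryk, a Wnt-binding pseudokinase (log2 difference 0.84 ± 0.21, edgeR adjusted p = 0.0430), and Ptk7, a pseudokinase of planar cell polarity (1.10 ± 0.21, adjusted p = 0.0255). Ryk went from 48.3 ± 12.1 to 86.6 ± 12.7 CPM and Ptk7 from 15.8 ± 2.52 to 33.9 ± 7.13 CPM (SD, n = 3). The co-receptors of the β-catenin route had negative fold changes that did not pass. Lrp5 stood at -0.50 ± 0.16 on the log2 scale (edgeR adjusted p = 0.0750) and Lrp6 at -0.40 ± 0.16. For both, every Cre library was below every flox library, as for 20.0% of all genes tested. They were the only 2 of the 14 genes separated in this direction. Another 7 of the 14 had every Cre library above every flox library, as did 19.6% of all genes tested.

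Sfrp1 (chromosome 8, 23411502 to 23449632, plus strand), the secreted decoy, was the lowest of the detected members. It was at 0.788, 1.351 and 0.373 CPM in flox and at 2.85, 2.27 and 1.345 CPM in Cre, from 15 to 114 counts per library. Flox 2 and Cre 3 were at nearly the same level, so the groups overlapped after TMM scaling. In FPKM they did not, at 0.272 in flox 2 and 0.311 in Cre 3, nor did they in counts scaled to library totals. Sfrp1 was not called at 1.37 ± 0.56 on the log2 scale (edgeR adjusted p = 0.138), nor under any of the 15 alternatives that gave it a value. Of 8 antagonist genes tested, 1 rose (6.35% of all genes did) and 0 fell (8.94% did), at a median log2 fold change of 0.99. The one that rose was Tpbg, a membrane glycoprotein that inhibits Wnt signalling, from 3.14 ± 1.52 to 9.87 ± 3.06 CPM (SD, n = 3; log2 fold change 1.65 ± 0.41, edgeR adjusted p = 0.0433).

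Axin2 (chromosome 11, 108920349 to 108950783, plus strand) encodes a scaffold of the β-catenin destruction complex and is itself a target of β-catenin, a negative feedback used as a readout of the pathway. Its level was 2.89, 1.26 and 2.36 CPM in flox and 9.39, 15.5 and 5.21 CPM in Cre, from 44 to 110 counts in flox and 213 to 641 in Cre. The groups did not overlap, and the Cre libraries differed among themselves by more than the flox libraries did. The mean rose from 2.17 ± 0.829 to 10.02 ± 5.16 CPM (SD, n = 3). The log2 fold change of 2.20 ± 0.49 (edgeR adjusted p = 0.0343) was the highest among the members. Limma-voom did not call Axin2 (adjusted p = 0.0656).

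The promoter sequences of Axin2 and Fzd1, which rose, and of Fzd7, the member with a negative fold change, are shown to give the bases around the starts in RefSeq. RefSeq's promoter table (GRCm38.p6) held 6 of the 10 members (Wnt2, Wnt9b, Fzd1, Fzd7, Ror2 and Axin2), each with 300 bases, 250 before and 50 after RefSeq's start. The GENCODE start printed above lies inside this window for Axin2, but downstream of it for Fzd1 and Fzd7. The core letters bound by Tcf/Lef factors, CTTTGAT, were searched on both strands and are in 3.73% of the 32851 promoters of that length. They were in 0 of the 6 member promoters. A search for the related CTTTGAA (in 5.14% of promoters), CTTTGTA (3.63%) and CTTTGTT (5.85%) was added after the sequences had been seen, and it found 1 match, a CTTTGTT on the opposite strand of the Fzd7 promoter, in capitals below. A match is a run of letters and not a bound site, and the lack of one says nothing of sites elsewhere. The windows are chr11:108920099-108920398 (plus strand, 70.0% G and C) for Axin2, chr5:4758167-4758466 (minus strand, 54.0%) for Fzd1 and chr1:59481897-59482196 (plus strand, 66.7%) for Fzd7, each read 5′ to 3′ along the gene.
Axin2: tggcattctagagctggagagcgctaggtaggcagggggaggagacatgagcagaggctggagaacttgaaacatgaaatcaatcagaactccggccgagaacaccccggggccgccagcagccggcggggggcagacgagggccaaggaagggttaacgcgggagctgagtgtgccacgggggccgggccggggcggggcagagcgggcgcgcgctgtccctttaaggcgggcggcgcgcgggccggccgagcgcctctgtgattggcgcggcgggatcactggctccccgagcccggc
Fzd1: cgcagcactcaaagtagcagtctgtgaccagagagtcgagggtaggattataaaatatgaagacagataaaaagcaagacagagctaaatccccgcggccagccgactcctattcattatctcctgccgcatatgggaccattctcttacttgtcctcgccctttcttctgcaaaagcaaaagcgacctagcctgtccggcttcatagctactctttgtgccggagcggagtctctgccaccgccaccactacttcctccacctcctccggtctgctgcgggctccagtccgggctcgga
Fzd7: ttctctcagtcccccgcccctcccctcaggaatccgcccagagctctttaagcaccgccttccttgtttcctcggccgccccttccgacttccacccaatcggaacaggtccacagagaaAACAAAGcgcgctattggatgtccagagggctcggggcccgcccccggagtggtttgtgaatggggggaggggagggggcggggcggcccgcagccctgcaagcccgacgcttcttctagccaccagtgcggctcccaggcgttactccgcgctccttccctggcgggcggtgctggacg

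Axin1, the related scaffold that is not a feedback gene, had a log2 fold change of -0.14 ± 0.11. Per kilobase, Axin2 made 3.28%, 1.48% and 3.10% of the Axin1 level in flox and 12.2%, 22.4% and 6.44% in Cre, without overlap. Among the 9 tested genes of the feedback and target list, Axin2 was the only one called, and 0 fell. Over all genes, 6.35% rose and 8.94% fell. The median log2 fold change of the 9 was 0.38, and 8 were positive. All Cre libraries were above all flox libraries for 4 of the 9 (44.4%), against 19.6% of all genes. Nkd1, another feedback inhibitor, had a log2 fold change of 0.35 ± 0.32 and Znrf3 one of 0.33 ± 0.17. Tcf7, a transcription factor that is also a target, had 0.47 ± 0.18. Ccnd1, cyclin D1, had the only negative value of the list, at -0.48 ± 0.23. None of these 4 passed.

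**Figure D3:**
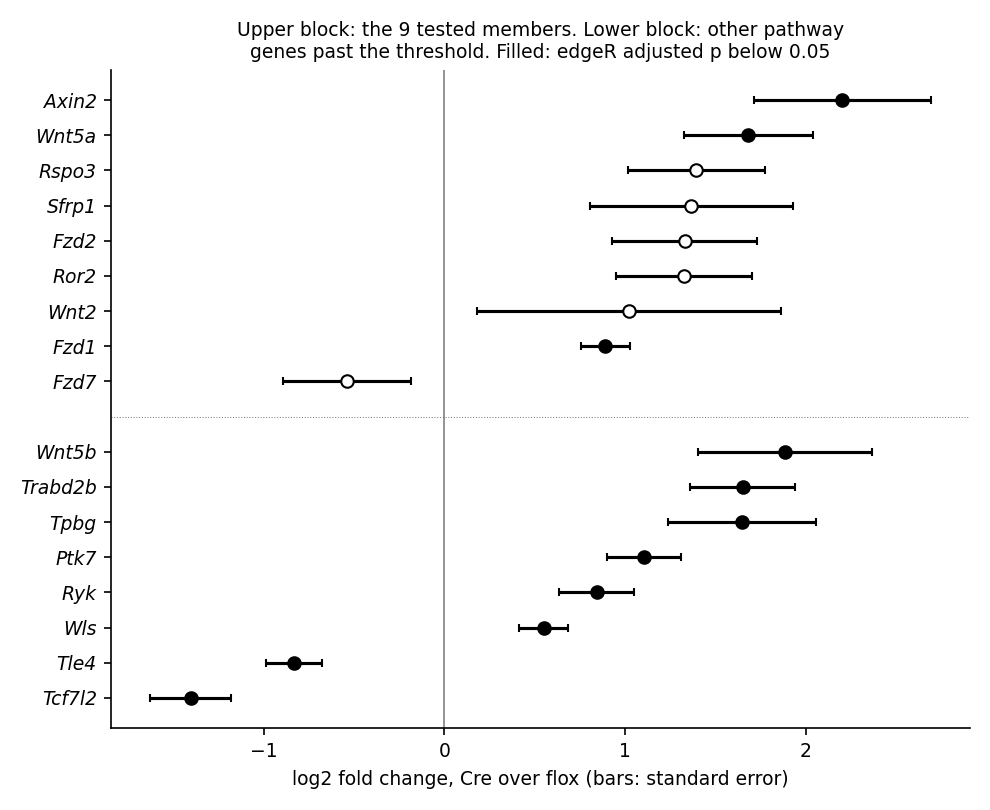
Log2 fold change of Cre over flox with its SE (x axis) for the tested members and for the other pathway genes named in the text, with filled points for an edgeR adjusted p below 0.05. Axin2 has the highest value among the members at 2.20 and Fzd7 is the one member below 0, at -0.54.

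Wt1, a transcription factor of stellate and mesothelial cells, was at 27.6, 15.9 and 20.6 CPM in flox and at 70.5, 78.3 and 23.4 CPM in Cre. Cre 3, the lowest Cre library for Axin2, was thus also the lowest for Wt1. Per kilobase, Axin2 made 6.08%, 4.62% and 6.64% of the Wt1 level in flox and 7.73%, 11.5% and 12.9% in Cre, which did not overlap. Its ratio to Gpm6a, another mesothelial marker, overlapped, at 8.11%, 4.92% and 6.77% in flox and 6.50%, 7.01% and 17.8% in Cre. The ratio of Axin2 to Pdgfra, a receptor of mesenchymal cells, overlapped, as did those of Wnt5a and of Fzd1 to Pdgfra and those of Wnt5a and of Ror2 to Wt1. Pdgfra itself rose by 1.20 ± 0.27 on the log2 scale (edgeR adjusted p = 0.0362). It was 1 of only 3 called among the 15 stellate markers, of which 10 had a positive and 5 a negative fold change. Ratios of these members to other markers of that list were not taken.

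**Figure D4:**
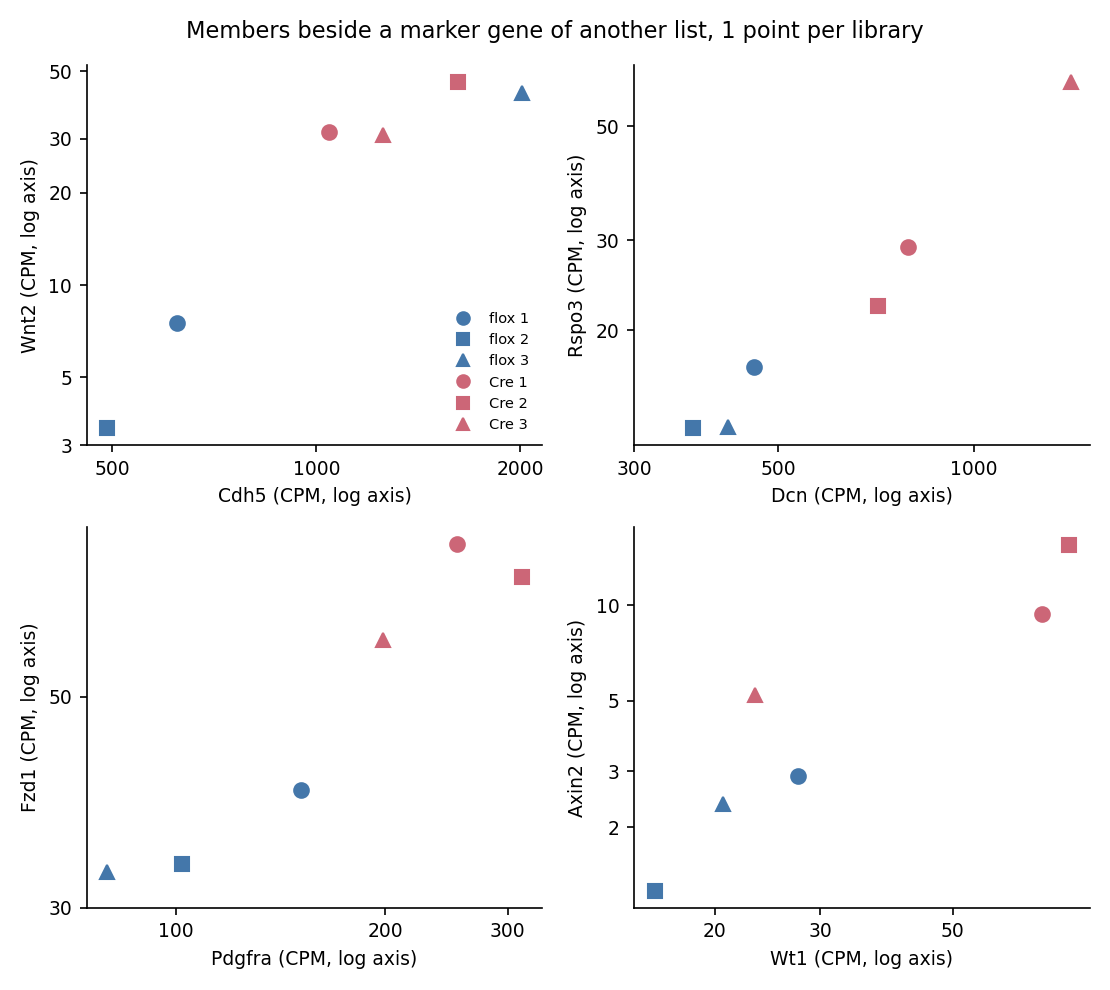
Level of 4 members (y axes) against that of a marker gene (x axes), in TMM-normalised CPM on log axes, 1 point per library. Flox 3 is highest for Cdh5 and second highest for Wnt2, and Cre 3 is highest for both Dcn and Rspo3 and lowest of the Cre libraries for Wt1 and Axin2.

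Over the whole marker lists, counts and medians were as follows, beside 6.35% of all genes called higher and 8.94% called lower. Of the 15 stellate markers 3 rose and 0 fell (median log2 fold change 0.41), the 3 being Pdgfra, Dcn and Hand2. Of the 16 endothelial markers 0 rose and 1 fell (Clec4g, a sinusoidal lectin, median 0.08), and of the 5 central vein markers 0 were called (median -0.20). Of the 10 mesothelial markers 0 were called, at a median of 1.41, and their summed level was 213 to 363 CPM in flox and 829, 972 and 340 CPM in Cre 1 to 3. Of the 10 portal fibroblast and smooth muscle markers tested 1 rose, Fbln2 (median 0.47). None of the 7 hepatocyte markers (median -1.17) or the 5 cholangiocyte markers (median -0.29) was called. The cholangiocyte markers summed to 108 to 1877 CPM in flox and 234 to 314 CPM in Cre. Their mean log2 CPM varied far less, at 2.94 to 3.57 in flox and 2.88 to 3.27 in Cre. The sum thus rests on its most abundant genes and not on the list as a whole. Of 7 tested genes listed as pericentral hepatocyte markers, 1 rose and 2 fell (median -1.47). Genes of this list summed to 461, 653 and 333 CPM in flox and 270, 269 and 250 CPM in Cre. The hepatocyte list summed to 184, 290 and 588 CPM in flox and 214, 70.4 and 325 CPM in Cre. Flox 2 was thus highest on the pericentral list, as on the macrophage list, and flox 3 on the hepatocyte list. Which cells these transcripts came from was not tested. Glul, glutamine synthetase, fell by 1.47 on the log2 scale and Cyp27a1, a sterol hydroxylase, fell by 2.21, while Slc1a2, a glutamate transporter, was at 2.98 on that scale (edgeR adjusted p = 0.0295, 0.0415 and 0.0237). The macrophage list, of which 0 rose, had a median of -3.06 over its 14 genes.

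The remaining steps of the pathway were covered by 94 other listed genes, of which 85 were in the table and 65 were tested. Of the 65, 6 rose, which is 9.23% against 6.35% of all genes, and 2 fell, which is 3.08% against 8.94%. The log2 fold change was positive for 45 and negative for 20, at a median of 0.31. All Cre libraries were above all flox libraries for 18 of the 65 (27.7%) and below for 7 (10.8%). The share called higher was thus near that of all genes. Beside Wnt5b, Ryk, Ptk7 and Tpbg, the genes that rose were Wls, the carrier needed for Wnt secretion, and Trabd2b (Tiki2), a membrane protease that inactivates Wnt proteins. Wls went from 172 ± 14.99 to 252 ± 34.7 CPM (SD, n = 3; log2 fold change 0.55 ± 0.14, edgeR adjusted p = 0.0433). Trabd2b went from 4.52 ± 1.05 to 14.2 ± 3.86 CPM (1.65 ± 0.29, edgeR adjusted p = 0.0250). These were 2 of 3 tested genes of the list on secretion and modification of ligands, of which 0 fell (median 0.55).

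Both genes that fell act in the nucleus. Tcf7l2, a β-catenin partner on DNA, went from 34.7 ± 8.20 to 13.1 ± 2.33 CPM (SD, n = 3; log2 fold change -1.40 ± 0.22, edgeR adjusted p = 0.0241). Tle4, a co-repressor of Tcf factors, went from 61.7 ± 10.9 to 34.6 ± 3.21 CPM (-0.83 ± 0.16, edgeR adjusted p = 0.0258). They were 2 of 11 nuclear genes tested (8.94% of all genes fell), of which 0 rose (6.35% did), at a median of -0.02. Ctnnb1, β-catenin itself, had a log2 fold change of 0.11 ± 0.18. Of the 12 destruction complex genes, Axin2 alone was called (median 0.07), and of the 9 planar polarity genes 0 were called (median 0.57).

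Levels per kilobase can be compared between genes, so the members were ordered by mean FPKM within each group. In flox the order was Fzd7 (11.6 ± 4.65 FPKM), Wnt2 (7.76 ± 9.63), Fzd1 (7.63 ± 0.787), Rspo3 (5.62 ± 0.860), Fzd2 (1.23 ± 0.494), Wnt5a (0.684 ± 0.0760), Ror2 (0.496 ± 0.0708), Axin2 (0.388 ± 0.153) and Sfrp1 (0.173 ± 0.0946; all SD, n = 3). Neighbours in this order whose library ranges overlapped were Fzd7 and Wnt2, Wnt2 and Fzd1, Fzd2 and Wnt5a, Ror2 and Axin2, and Axin2 and Sfrp1. In Cre the order was Wnt2 (16.8 ± 4.03 FPKM), Rspo3 (16.4 ± 8.78), Fzd1 (15.8 ± 2.09), Fzd7 (9.06 ± 1.68), Fzd2 (3.43 ± 1.33), Wnt5a (2.47 ± 1.06), Axin2 (1.99 ± 1.03), Ror2 (1.40 ± 0.587) and Sfrp1 (0.509 ± 0.186). The first 3 of these could not be ordered by their ranges, nor could Fzd2 and Wnt5a, Wnt5a and Axin2, or Axin2 and Ror2. Fzd7 was thus first by mean in flox, and in Cre all its libraries lay below those of Fzd1.

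The genes with the most similar profile over the 6 libraries were found among 11713 genes by the root mean square difference of centred log2 CPM. For Wnt2, whose own spread on this scale was 1.40, they were Pcdh17 at 0.19 and Bmp6 at 0.22. For Wnt5a (own spread 0.90) they were Kif20a at 0.08 and Cdk1 at 0.11. For Axin2 (1.20) they were Mpp2 at 0.20 and Cdh11 at 0.22, and for Rspo3 (0.78) they were Sox5 at 0.13 and Dcn at 0.16. Among the receptors, Fzd1 (0.46) had Fam149a at 0.05 and S100a11 at 0.06, and Fzd2 (0.82) had Cobl and Mapk13, both at 0.14. Fzd7 (0.52) had Idh2 at 0.03 and Nmral1 at 0.05, and Ror2 (0.73) had Synpo2 at 0.15 and Bub1b at 0.16. For Sfrp1 (0.92) the nearest genes were farther away, Ube2t at 0.27 and Adamts3 at 0.30. The 6 libraries differ in cell makeup, and these distances are descriptions only.

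How firmly the calls stand depended on single libraries and on the test. No member passed when flox 1, flox 2, Cre 1 or Cre 2 was left out of the edgeR fit, and 0 genes of the whole table did, although 6 to 7 members stayed at an unadjusted p below 0.05. Without flox 3, 4 members passed (Wnt2, Wnt5a, Fzd1 and Axin2) and Fzd7 was called lower, in a fit that called 16.0% of all genes higher and 18.8% lower. Without Cre 3, the 4 were Wnt5a, Fzd1, Ror2 and Axin2, where 5.04% of all genes were called higher. The log2 fold changes of the 3 called members kept their sign in all 16 alternatives.

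**Figure D5:**
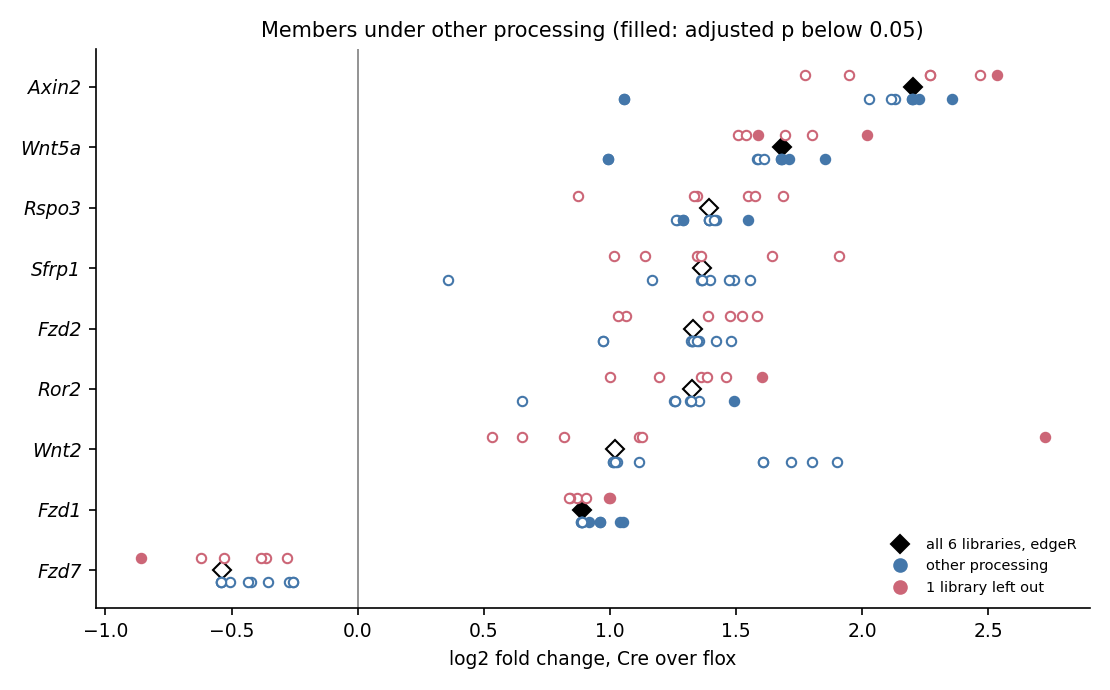
Log2 fold change of each tested member (x axis) under the reported setting and under each alternative, with filled points where the adjusted p was below 0.05. Wnt2 spans 0.53 to 2.72 and Fzd7 -0.86 to -0.26, and none of the 9 members crosses 0.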

How the data were processed

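Raw gene counts and FPKM of 6 libraries were deposited by the authors. The submitters' processing notes name the builds GRCm38, mm10 and hg38 with no role. An aligner, a counter and a strand setting were not given in the sources used here. No sample column was left unused. From the deposited counts, genes were kept by edgeR's filterByExpr (minimum count 10, total 15), which left 14795 of 22966, scaled by TMM and tested Cre against flox with edgeR 4.0.16 (quasi-likelihood, R 4.3.3). Adjusted p-values are Benjamini-Hochberg over all genes tested, with a threshold of 0.05. The authors' FPKM served for levels between genes and ratios within a library. Alternatives used DESeq2 1.42.0, limma 3.58.1 (voom, and trend on log2(FPKM + 1) or log2(FPKM + 0.1)), other scalings and filters, a replicate block and leaving out each library. The edgeR fit was tested on simulated data, drawn independently for each library around a common mean per gene. That simulation held no shift in cell makeup and no outlying library, so it does not show how the fit behaves with these. The members and gene lists were chosen with earlier results of these data known. Named genes are the members, every other pathway gene past the threshold, the ligand and receptor genes of highest FPKM, marker genes, and for each member the 2 genes of most similar profile (average log2 CPM of at least 1, no Gm or Rik symbols). Some others (the ratio partners, and list members given as examples) were chosen after their values were seen.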

Additional observations from a re-analysis of the deposited data

How the results depend on the processing

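The 3 members called higher became 5 with library totals as the scaling, 6 with DESeq2, 1 with limma-voom, 0 with log2(FPKM + 1) and 1 with log2(FPKM + 0.1), and ranged from 0 to 4 when each library was left out. The 0 called lower became 0 to 1 on leaving out libraries. The 6 other pathway genes called higher became 16 with DESeq2, 2 with limma-voom, 0 with log2(FPKM + 1) and 1 with log2(FPKM + 0.1), and ranged from 0 to 19, with 19 without flox 3. The 2 called lower became 4 with DESeq2, 0 with log2(FPKM + 1) and 1 with log2(FPKM + 0.1), and ranged from 0 to 6, with 6 without flox 3 and 1 without Cre 3. With the other scaling and filters these counts stayed within 1.5 times. None of the 9 tested members or the 8 called pathway genes changed sign under an alternative that gave it a value; other named genes were not followed across alternatives. Of the values for a member under an alternative, 110 kept their side of the threshold, 10 passed newly and 22 no longer passed. The cause was not tested.

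The titles number the libraries 1 to 3 in both groups, but same-numbered libraries did not deviate together. Their correlations were -0.03, -0.10 and -0.06, and 0 of 6 libraries correlated best with its own number. No pairing by number was thus seen, but with 3 libraries per group this check cannot exclude one. With the replicate block, 0 members and 0 other pathway genes were called in either direction, as were 0 of all genes.

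Over all genes, 2263 calls became 2481 with library totals, 4334 with DESeq2, 1404 with limma-voom, 931 with log2(FPKM + 0.1), 5329 without flox 3 and 1369 without Cre 3. Higher calls were 41.5% of them at first, 57.0% with library totals, which raised the median fold change by 0.16 (log2), and 59.6% with log2(FPKM + 1) at a mean FPKM of at least 1, which raised it by 0.13. Ror2, Sfrp1 and Wnt5b had no value under that last filter. Sfrp1 had the lowest counts of the tested members, 15 to 114 per library.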
